A study of Mus musculus with 12 samples.

Results

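The transcription factor p53, encoded by Trp53, was followed together with its best known target genes in RNA-seq of stromal cells from mouse adipose tissue. The stromal vascular fraction holds precursors, endothelial and immune cells and is prepared apart from the mature fat cells. The set held 33 genes chosen by gene symbol: 3 regulators (Trp53, Mdm2 and Mdm4), 8 targets that act in growth arrest and feedback, 12 in apoptosis, 5 in DNA repair and nucleotide supply and 5 in metabolism and stress. All 33 were among the 24422 features counted, all 33 passed the filter on low counts, which kept 16713 genes, and all 33 had a count in every library. The 12 libraries formed 4 groups of 3. SD mCherry (replicates 1, 2 and 3) came from p21+/mcherry mice on a standard diet and HFD mCherry (replicates 15, 17 and 20) from p21+/mcherry mice on a high-fat diet. HFD Tert (replicates 25, 26 and 27) came from p21+/mcherry-Tert mice on the high-fat diet, and HFD TertCi (replicates 30, 31 and 33) from p21+/mcherry-TertCi mice on the same diet, where TertCi is a catalytically inactive form of Tert, the protein subunit of telomerase. All 4 groups thus carried 1 knock-in allele at p21 (Cdkn1a), and the p21 promoter, itself a target of p53, drives the cassettes. The sample titles call SD mCherry and HFD mCherry P21het, and the series' design calls the control on the high-fat diet p21 heterozygous. The genotypes in the sample labels name mCherry, and groups follow these. The labels give neither sex, age, fat depot nor batch, and nothing there says whether replicates were separate animals, so p-values measure the spread between these libraries, part of which may be technical.

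p53 is kept low in unstressed cells because Mdm2, an E3 ubiquitin ligase, marks it for degradation and the related Mdm4 binds its activation domain. DNA damage and other stresses release p53 from this control, and p53 then acts as a tetramer on response elements in its target genes, among them Mdm2, which closes a feedback loop. The targets arrest the cell cycle (p21, Gadd45a, Btg2), start apoptosis (Bax, Bbc3, Pmaip1 and the death receptors Fas and Tnfrsf10b), repair DNA (Xpc, Ddb2) or adjust metabolism (Sesn1, Sesn2, Tigar). In adipose tissue of obese animals, p53 and p21 are known markers of stress and senescence in precursor, endothelial and immune cells. Because p53 is regulated mainly as a protein, its own mRNA and those of its targets are separate readouts.

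The p53 response element is built from pairs of a decamer that reads the same on both strands. RefSeq promoter windows of assembly GRCm38.p6, each reaching from 250 bases before to 50 bases after a transcription start, were searched for this decamer, the p53 half-site, and were found for 25 of the 33 members. A half-site was present in a window of 9 of these 25 genes (36%), against 8.36% of all 32851 windows and 9.55% of all genes in the table. The windows with half-sites are shown because they are the promoters of this set in which a half-site, though no close pair of them, could be read directly. Capitals mark the half-site and the sequences run 5′ to 3′ along the strand of the gene.
Trp53: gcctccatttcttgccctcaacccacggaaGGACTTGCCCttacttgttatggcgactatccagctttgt
Mdm2: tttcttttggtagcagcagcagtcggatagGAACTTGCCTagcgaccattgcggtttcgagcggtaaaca
Ccng1: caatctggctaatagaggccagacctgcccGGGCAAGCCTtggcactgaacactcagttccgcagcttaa
Sesn1: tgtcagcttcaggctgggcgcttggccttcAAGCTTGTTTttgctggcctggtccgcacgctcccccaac
Polk: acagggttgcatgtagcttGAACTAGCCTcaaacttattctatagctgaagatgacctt
Gadd45a: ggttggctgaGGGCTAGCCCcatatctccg
Aen: agccgaagccGGGCTTGTCCgggcaaggag
Ei24: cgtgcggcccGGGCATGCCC
Cdkn1a: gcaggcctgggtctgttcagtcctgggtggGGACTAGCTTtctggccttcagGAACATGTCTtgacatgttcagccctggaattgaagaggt
The Trp53 sequence lay at chr11:69580254-69580323 (plus strand), with the half-site starting 75 bases before the RefSeq start, the Mdm2 sequence at chr10:117710905-117710974 (minus strand), 186 bases before, and the Ccng1 sequence at chr11:40755432-40755501 (minus strand), 185 bases before. These 3 lay upstream of the gene in GENCODE M21. The Sesn1 sequence at chr10:41887236-41887305 (plus strand) and the Polk sequence at chr13:96519379-96519437 (minus strand) lay before a RefSeq start inside the gene, in an intron of the GENCODE M21 models. The shorter sequences of Gadd45a at chr6:67037428-67037457 (minus strand), of Aen at chr7:78895927-78895956 (plus strand) and of Ei24 at chr9:36797335-36797354 (minus strand) lay in an exon of the GENCODE M21 models, 40, 121 and 10 bases before the RefSeq start. Bax was the other member with a half-site. Cdkn1a, which is not a member, is shown for contrast: its window, at chr17:29090876-29090967 (plus strand), held a pair of half-sites 12 bases apart. A pair of half-sites with at most 13 bases between them was found in 24 windows (0.0731%) and in 0 of the members' windows. A match describes these letters only, and a window without one says nothing about binding elsewhere in the gene.

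Total counts ran from 16430330 to 19486965 per library. Levels are given as CPM, a gene's count relative to its library's size after TMM scaling, and log2 fold changes come from an edgeR quasi-likelihood fit to all 12 libraries, with a gene called at an adjusted p under 0.05. Crisp1, a transcript of the epididymis, was under 1 CPM in 1 library of each group (HFD TertCi 31, HFD Tert 27, HFD mCherry 20 and SD mCherry 2), and at 641 to 14780 CPM in the other 8 libraries. The summed level of 10 macrophage markers was 1117 to 1240 CPM on the standard diet, 2405 to 6018 in HFD mCherry, 925 to 2472 in HFD Tert and 1169 to 1738 in HFD TertCi. That of 10 adipose progenitor markers was 2841 to 4472, 7338 to 21450, 4285 to 10400 and 3923 to 7316 CPM, and that of 10 endothelial markers 1042 to 1448, 1888 to 3486, 2495 to 5693 and 2667 to 6038 CPM, in the same order of groups. No marker of these 3 lists was at 0 in all libraries, so the labelled stromal fraction held transcripts of each. Transcripts of 8 adipocyte markers were counted too, with sums of 340 to 644, 1005 to 1864, 877.5 to 6343 and 1840 to 3616 CPM in the same order of groups. In such bulk RNA, fewer cells of a type and less RNA per cell cannot be told apart.

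**Figure D1:**
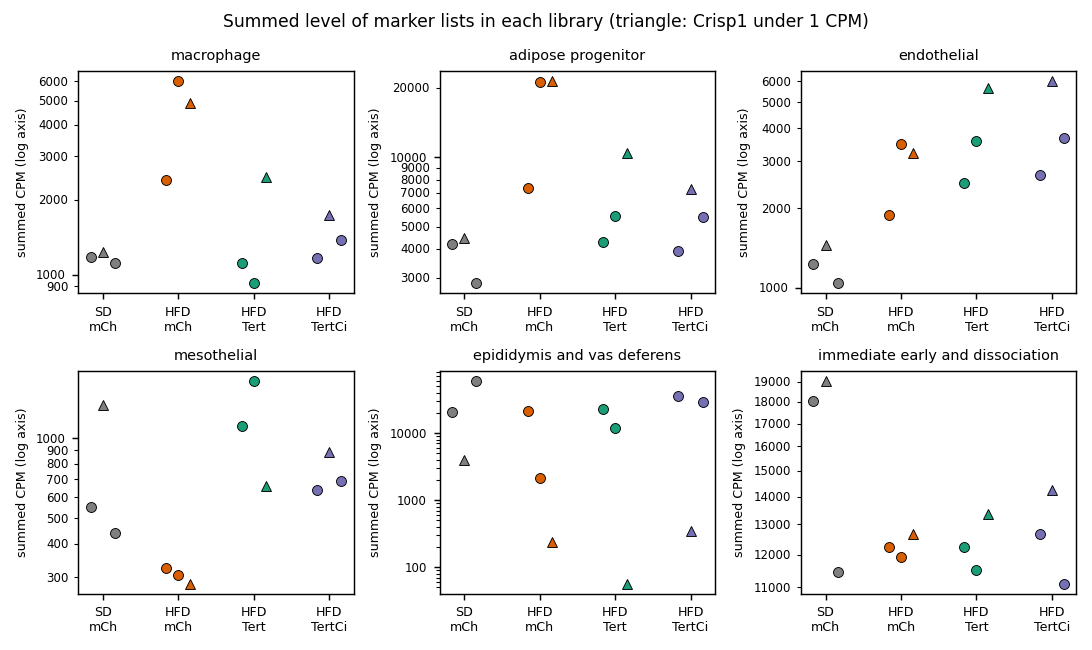
Summed CPM (log axes) of the marker lists in each library, by group. Macrophage and adipose progenitor sums were highest in HFD mCherry 17 and 20, and the epididymis list spread from 57.2 to 59480 CPM among libraries.

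Per kilobase of exon (RPKM, computed from mean CPM and GENCODE M21 exon lengths), Btg2, an antiproliferative factor, had the highest level of the set at 249 RPKM on average over the groups. Gdf15, a secreted stress hormone, followed at 125, Gadd45a, a growth arrest and repair factor, at 67.4, Plk2, a stress-induced polo-like kinase, at 61.9, and Ephx1, an epoxide hydrolase, at 57.4 RPKM. Trp53 stood at 10.8 and Mdm2 at 26.8 RPKM. Psrc1, a spindle protein, and Pidd1, a death-domain adaptor, were lowest at 0.51 and 0.48 RPKM. Across the 12 libraries, the highest level of a member was a median of 3.001 times its lowest, from 1.40 times for Ercc5, a repair nuclease, to 30.4 times for Perp, a desmosomal protein induced during apoptosis. Some reads of Gadd45a, Ddb2 and Plk3 may belong to genes on the opposite strand (E230016M11Rik, Acp2 and Tctex1d4), which share 19.1%, 23.8% and 3.3% of their exon bases, since the use of strand in counting is not stated.

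**Figure D2:**
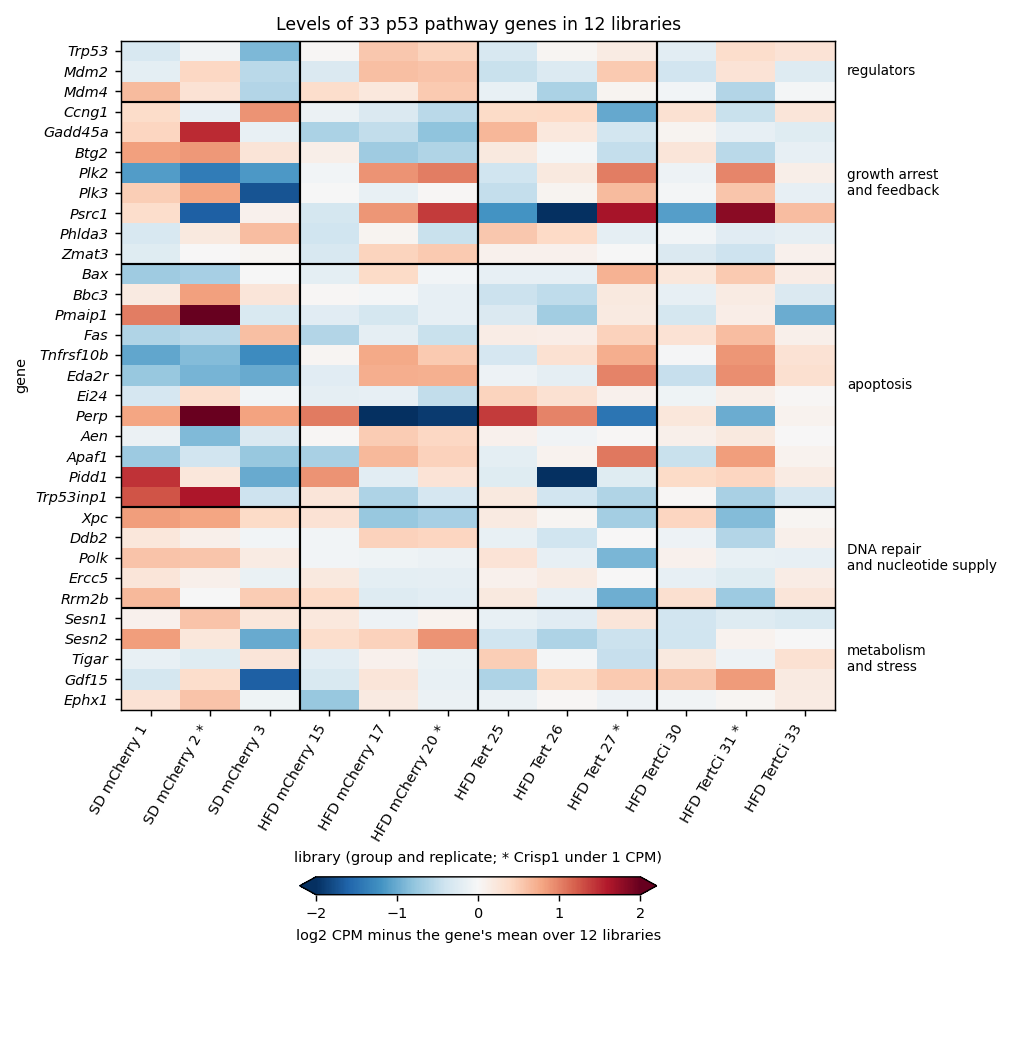
Level of each of the 33 members (rows, ordered by role) in each library (columns, ordered by group), as log2 CPM minus the gene's mean over the 12 libraries; asterisks mark the 4 libraries with Crisp1 under 1 CPM. Plk2, Tnfrsf10b and Eda2r were lowest in the 3 SD mCherry libraries, while Gadd45a was lowest in HFD mCherry.

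The first comparison asked how the high-fat diet altered these genes within the mCherry genotype (HFD mCherry against SD mCherry). The set did not move in 1 direction: 14 members had a higher and 19 a lower mean, with a median log2 fold change of -0.15 against -0.08 over all genes tested. The receptor genes Tnfrsf10b and Eda2r and the kinase gene Plk2 had 2.57 to 3.76 times the level on the high-fat diet, and Trp53 and the nuclease gene Aen 1.65 to 1.67 times, with no overlap between the libraries. Gadd45a, Btg2, Xpc, Polk and Bbc3 were at 0.38 to 0.71 times the standard-diet level, also without overlap. None of the 33 was called by edgeR, which called 8 genes in all (0.0479% of those tested).

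Of the 33 members, 10 (30.3%) had an unadjusted p under 0.05, 5 higher and 5 lower, against a background of 24.1% of all genes tested (4033 genes). Libraries did not overlap for 5 members that were higher (15.2%, against 13.9% of all genes) and 5 that were lower (15.2%, against 11.6%). DESeq2 called 7 members (21.2%, against 12.4% of all genes): Plk2, Tnfrsf10b, Eda2r and Aen as higher and Gadd45a, Btg2 and Pmaip1 as lower. limma-voom called 0 members and 0 of all genes (0%). The median size of a log2 fold change was smaller for the members (0.49) than for all genes (0.57).

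**Figure D3:**
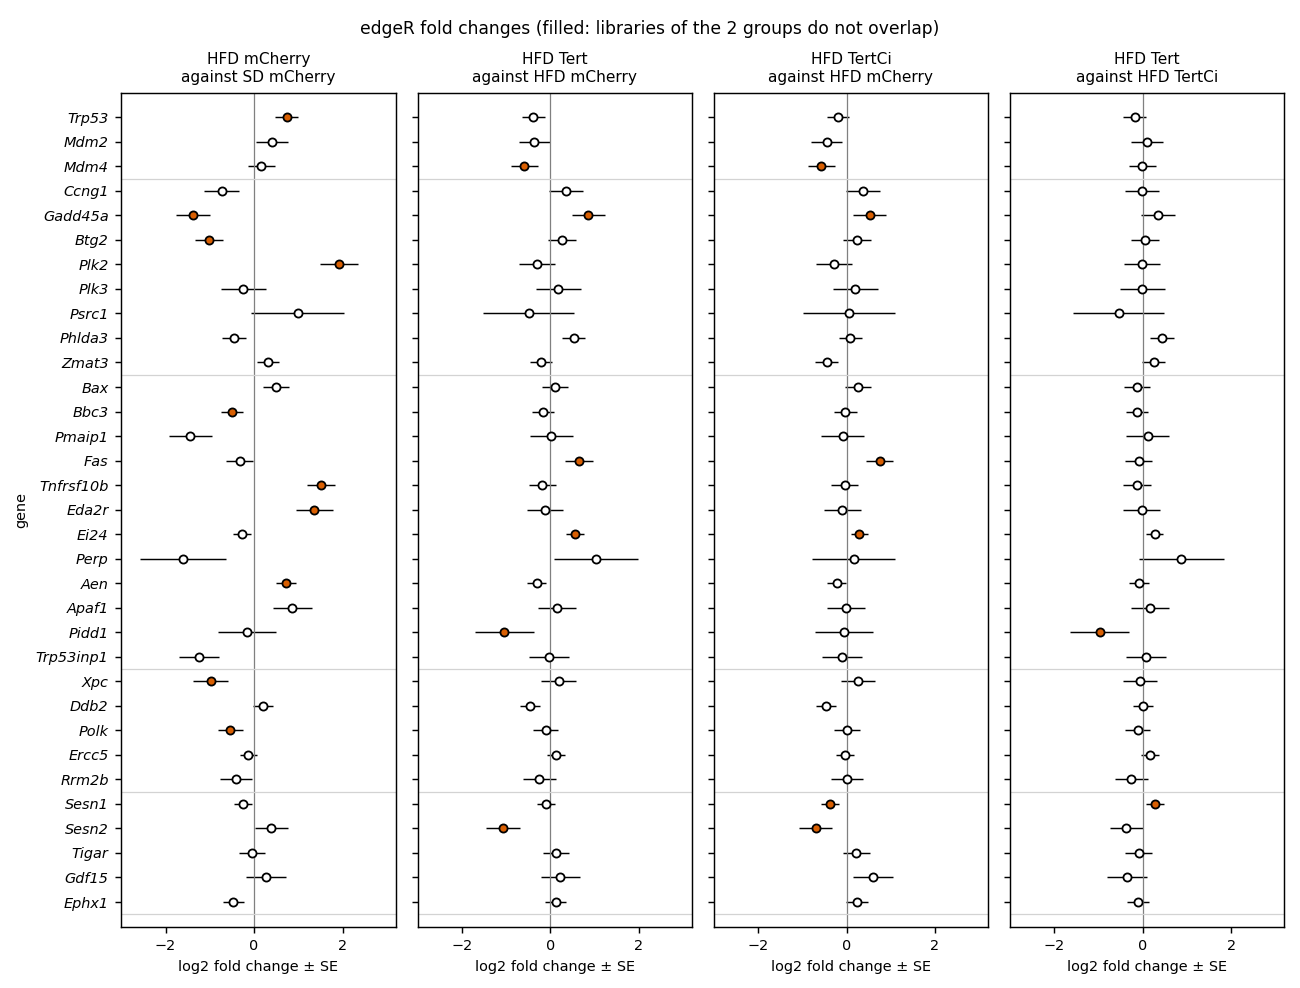
Log2 fold change of each member in the 4 comparisons, with a standard error derived from the statistic of the edgeR test. Members are ordered by role, with filled points where the libraries of the 2 groups did not overlap. In the diet comparison the values ran from -1.60 (Perp) to 1.91 (Plk2), and those of HFD Tert against HFD TertCi lay nearest to 0.

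Among the regulators, Trp53 was at 34.0, 40.2 and 22.6 CPM in SD mCherry 1, 2 and 3 and at 43.0, 61.3 and 57.6 CPM in HFD mCherry 15, 17 and 20. Every high-fat library was above every standard-diet library, and replicate 15 came nearest to them (log2 fold change 0.74 ± 0.258 SE, adjusted p = 0.133 in edgeR). Mdm2 was at 114, 173 and 89.8 CPM on the standard diet and at 107, 198 and 194 CPM on the high-fat diet. The groups overlapped, since replicate 15 was below 2 of the standard-diet libraries (log2 fold change 0.41 ± 0.356 SE, adjusted p = 0.481 in edgeR). Mdm4 overlapped too (log2 fold change 0.17 ± 0.304, SE), and its sign turned when library size alone was used for scaling, which moved the median of all genes by -0.20.

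Growth arrest and feedback genes went both ways, with 3 of 8 higher and 5 lower in mean and 3 at an unadjusted p under 0.05. Plk2, at chr13:110395046-110400844 (GRCm38, plus strand), was at 109, 89.6 and 107 CPM on the standard diet and at 229, 441 and 480 CPM on the high-fat diet. The lowest high-fat library, replicate 15, had more than every standard-diet library (3.76-fold, log2 fold change 1.91 ± 0.427 SE, adjusted p = 0.0692 in edgeR). DESeq2 called Plk2 (adjusted p = 0.000964), and over 20 alternatives the adjusted p ran from 0.000964 to 0.262, under the threshold in 4. Gadd45a was at 145, 301 and 96.7 CPM on the standard diet and at 69.2, 76.7 and 61.6 CPM on the high-fat diet. The high-fat libraries were close to one another and all below the lowest standard-diet library, replicate 3 (log2 fold change -1.39 ± 0.386 SE, adjusted p = 0.0884 in edgeR, 0.00850 to 0.309 over the alternatives). Btg2 was at 1133, 1172 and 767 CPM on the standard diet and at 697, 391 and 423 CPM on the high-fat diet. Replicates 3 and 15 nearly met between the groups (log2 fold change -1.02 ± 0.320 SE, adjusted p = 0.109 in edgeR, 0.0163 to 0.370 over the alternatives).

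Ccng1, which encodes cyclin G1 and is one of the most consistently induced p53 targets, was at 134, 93.1 and 195 CPM on the standard diet and at 96.8, 85.5 and 71.8 CPM on the high-fat diet. The groups overlapped by replicates 2 and 15, and the mean was lower on the high-fat diet while Trp53 was higher (log2 fold change -0.73 ± 0.389 SE, adjusted p = 0.265 in edgeR). Phlda3, an inhibitor of Akt, Zmat3, an RNA-binding protein, Plk3 and Psrc1 overlapped between the diets, with log2 fold changes from -0.45 to 0.99 and edgeR adjusted p of 0.313 or more. Psrc1 was counted only 8 to 53 times in each of the 6 libraries, and its standard error was the widest of the set (1.05).

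Of the 12 apoptosis genes, 5 were higher and 7 lower in mean, and 5 had an unadjusted p under 0.05. Tnfrsf10b, the TRAIL death receptor at chr14:69767472-69784411 (plus strand), was at 41.7, 46.7 and 35.9 CPM on the standard diet and at 88.1, 145 and 123 CPM on the high-fat diet. All high-fat libraries were well above all standard-diet libraries (2.87-fold, log2 fold change 1.52 ± 0.319 SE, adjusted p = 0.0659 in edgeR, 0.000900 to 0.256 over the alternatives). Eda2r, a receptor for ectodysplasin at chrX:97333840-97377216 (minus strand), was at 23.5, 20.9 and 19.9 CPM on the standard diet and at 34.1, 65.9 and 65.6 CPM on the high-fat diet. Replicate 15 again lay between the standard-diet libraries and the other high-fat ones (2.57-fold, log2 fold change 1.36 ± 0.419 SE, adjusted p = 0.105 in edgeR, 0.0267 to 0.335 over the alternatives). Aen, a p53-induced exonuclease, was at 28.4, 16.8 and 25.3 CPM and then at 31.2, 43.7 and 41.1 CPM. Replicates 1 and 15 nearly met (1.65-fold, log2 fold change 0.72 ± 0.219 SE, adjusted p = 0.104 in edgeR, 0.0330 to 0.412 over the alternatives).

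Bbc3 (Puma), a BH3-only protein that frees Bax, was at 25.8, 40.2 and 27.05 CPM on the standard diet and at 23.4, 22.2 and 20.4 CPM on the high-fat diet. SD mCherry 1 and HFD mCherry 15 nearly met, and SD mCherry 2 stood above the rest (log2 fold change -0.50 ± 0.256 SE, adjusted p = 0.253 in edgeR). Pmaip1 (Noxa), another BH3-only gene, and Trp53inp1, a stress-induced cofactor of p53, overlapped between the diets although both had an unadjusted p under 0.05 (log2 fold changes -1.44 ± 0.493 and -1.24 ± 0.454 SE, adjusted p = 0.130 in edgeR and 0.147). In both genes SD mCherry 1 and 2 were high (100 and 200 CPM for Pmaip1, 164 and 212 CPM for Trp53inp1) and SD mCherry 3 was near the high-fat libraries (40.4 and 51.6 CPM). Bax, Fas, Ei24, Perp, Apaf1 and Pidd1 overlapped, with edgeR adjusted p of 0.242 or more. Perp had the widest range of these: 99.3, 227 and 101 CPM on the standard diet and 118, 7.46 and 15.3 CPM on the high-fat diet, so that replicate 15 alone was at the standard-diet level.

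Among the DNA repair and nucleotide supply genes, 4 of 5 were lower in mean on the high-fat diet. Xpc, the damage sensor of nucleotide excision repair, was at 34.7, 33.5 and 25.3 CPM on the standard diet and at 23.6, 11.4 and 12.3 CPM on the high-fat diet. Replicates 3 and 15 lay close together at the border (log2 fold change -0.98 ± 0.391 SE, adjusted p = 0.171 in edgeR). Polk, a translesion DNA polymerase, was at 17.8, 17.6 and 13.4 CPM and then at 11.5, 11.2 and 10.99 CPM. The high-fat libraries were nearly equal and all below the standard-diet libraries (log2 fold change -0.53 ± 0.291 SE, adjusted p = 0.280 in edgeR). Ddb2, Ercc5 and Rrm2b overlapped (log2 fold changes -0.41 to 0.19), with the sign of Ddb2 turned by scaling on library size alone. The 5 metabolism and stress genes all overlapped, with log2 fold changes from -0.46 (Ephx1) to 0.39 (Sesn2) and 0 of 5 at an unadjusted p under 0.05.

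**Figure D4:**
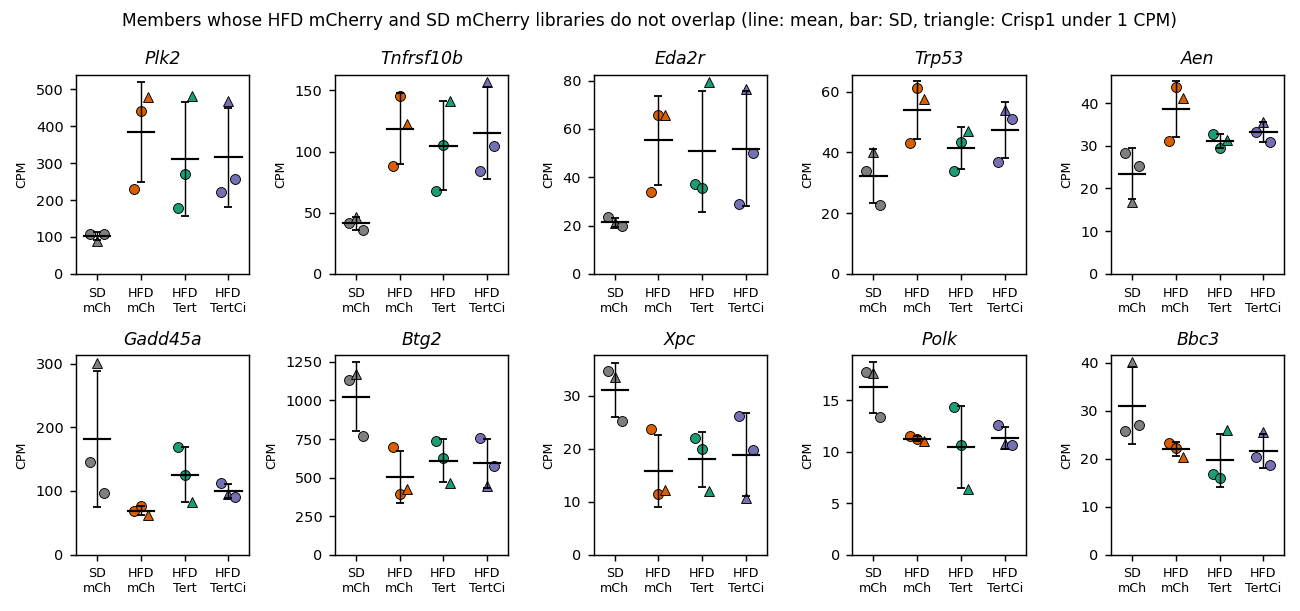
CPM of the 10 members whose HFD mCherry and SD mCherry libraries did not overlap, with 1 point per library (triangles for Crisp1 under 1 CPM) a line at the group mean and a bar of 1 SD on each side, in all 4 groups. HFD mCherry 15 is the HFD mCherry library nearest to the standard-diet libraries for 9 of the 10, the exception being Gadd45a.

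Other measures moved with these values. All 10 macrophage markers and 8 of 10 adipose progenitor markers had an unadjusted p under 0.05 and were higher in HFD mCherry. Their sums were lowest among the high-fat mCherry libraries in replicate 15 (2405 and 7338 CPM), and reached 6018 and 21210 CPM in replicate 17 and 4916 and 21450 CPM in replicate 20. Without replicate 15, edgeR called 7 members (21.2%, against 12.6% of all genes): Plk2, Tnfrsf10b, Eda2r and Aen as higher and Btg2, Xpc and Perp as lower. Without HFD Tert replicate 27, a library of neither group, it called 2 (Plk2 and Tnfrsf10b, against 4.21% of all genes). The summed level of 12 immediate early and dissociation genes was 18050 and 19030 CPM in SD mCherry 1 and 2, the libraries highest in Btg2, Pmaip1 and Trp53inp1, and 11110 to 14250 CPM in the other 10 libraries. The part of cell composition or of dissociation in the members' values was not tested. With an epididymis score as covariate, edgeR called 5 members (15.2%, against 10.2% of all genes): Plk2, Tnfrsf10b and Eda2r as higher and Gadd45a and Btg2 as lower. All 10 non-overlapping members had the same sign within the 8 libraries with Crisp1 and between the single libraries without it. The absence of overlap by which they were chosen all but fixes the sign in any such subset, so this was no separate check.

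The next comparison asked what the active Tert cassette changed on the high-fat diet (HFD Tert against HFD mCherry). Most of the set lay close to the control: the median log2 fold change was -0.03 against -0.05 over all genes, with 16 members higher and 17 lower, and the median size was 0.24 for the members and 0.44 for all genes. Gadd45a, Ei24 and Fas were 1.47 to 1.82 times as high, and Sesn2, Pidd1 and Mdm4 were at 0.48 to 0.67 times the control, without overlap. edgeR called 0 members and 0 of all genes (0%). At an unadjusted p under 0.05 there were 3 members (9.09%, against 16.4% of all genes), namely Gadd45a and Ei24 as higher and Sesn2 as lower, and DESeq2 called 0 members (against 5.08% of all genes), as did limma-voom (0%) and edgeR with the epididymis score (against 5.95%). Libraries did not overlap for 3 members that were higher (9.09%, against 9.99% of all genes) and 3 that were lower (9.09%, against 11.1%).

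Sesn2, a leucine sensor and antioxidant protein that restrains mTORC1, was at 34.0, 36.7 and 49.6 CPM in HFD mCherry 15, 17 and 20 and at 20.2, 17.3 and 19.9 CPM in HFD Tert 25, 26 and 27. The Tert libraries were close together and all well below the control (log2 fold change -1.07 ± 0.375 SE, adjusted p = 0.231 in edgeR). On the standard diet the same gene spanned 13.3 to 47.2 CPM, which covers the Tert libraries and 2 of the 3 HFD mCherry libraries. Ei24, an endoplasmic reticulum protein of autophagy, was at 77.4, 78.5 and 62.5 CPM in the control and at 119, 109 and 93.7 CPM in HFD Tert. Each Tert library exceeded each control library (log2 fold change 0.56 ± 0.200 SE, adjusted p = 0.235 in edgeR).

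Gadd45a, at 69.2, 76.7 and 61.6 CPM in HFD mCherry, was at 169, 125 and 83.0 CPM in HFD Tert. Replicate 27 came nearest to the control (log2 fold change 0.86 ± 0.381 SE, adjusted p = 0.297 in edgeR). Fas, the receptor of Fas ligand, was at 43.3, 56.9 and 47.4 CPM in the control and at 71.8, 70.6 and 89.3 CPM in HFD Tert. All Tert libraries were above the control libraries (log2 fold change 0.65 ± 0.309 SE, adjusted p = 0.323 in edgeR). Mdm4 was at 104, 93.9 and 118 CPM in the control and at 73.5, 52.3 and 84.3 CPM in HFD Tert. The highest Tert library stayed below the lowest control library (log2 fold change -0.59 ± 0.305 SE, adjusted p = 0.360 in edgeR). Pidd1 was counted 63, 27 and 38 times in the control and 27, 8 and 27 times in HFD Tert, or 3.48, 1.62 and 2.27 against 1.58, 0.427 and 1.59 CPM. HFD mCherry 17 and the upper Tert libraries were nearly equal, and the estimate was wide (log2 fold change -1.04 ± 0.672 SE, adjusted p = 0.450 in edgeR).

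The regulators Trp53 and Mdm2 overlapped between HFD Tert and the control. Trp53 was at 33.9, 43.4 and 47.2 CPM in HFD Tert (log2 fold change -0.38 ± 0.257 SE, adjusted p = 0.468 in edgeR), and Mdm2 at 95.3, 108 and 187 CPM (log2 fold change -0.36 ± 0.356 SE, adjusted p = 0.632 in edgeR). In both genes replicate 27 was the highest of the Tert libraries. Ccng1 was at 136, 138 and 51.8 CPM in HFD Tert, where replicate 27 was the lowest of all 12 libraries (log2 fold change 0.36 ± 0.388 SE, adjusted p = 0.666 in edgeR). The remaining 24 members overlapped between the groups, with edgeR adjusted p of 0.337 or more. Beside these values, 9 of 10 macrophage markers had an unadjusted p under 0.05 and were lower in HFD Tert, and 5 of 7 mesothelial markers were higher (sums of 284 to 324 CPM in HFD mCherry and 659 to 1637 in HFD Tert). By the same measure 5 of 6 mast cell and 4 of 10 adipose progenitor markers were lower, and 4 of 8 adipocyte markers were higher and 0 lower. The part of composition was not tested.

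The catalytically inactive cassette was compared with the same 3 HFD mCherry libraries (HFD TertCi against HFD mCherry), so the values of HFD Tert and HFD TertCi against that control are not independent of each other. The diet comparison uses these 3 libraries too, so its values are not independent of either. The set again lay near the control, with a median log2 fold change of -0.0034 against -0.04 over all genes, a median size of 0.22 against 0.43, and 16 members higher and 17 lower. This split became 21 and 12 when library size alone was used for scaling, which moved the median of all genes by 0.10 and turned the sign of Bbc3, Tnfrsf10b, Eda2r, Apaf1 and Ercc5. Fas, Gadd45a and Ei24 were 1.22 to 1.68 times as high as in the control and Sesn2, Mdm4 and Sesn1 at 0.62 to 0.77 times, without overlap. edgeR called 0 members, against 0.0120% of all genes (2 genes), and DESeq2 (4.09% of all genes), limma-voom (0.0120%) and edgeR with the epididymis score (3.27%) each called 0 members. Fas alone had an unadjusted p under 0.05 (3.03% of members, against 14.7% of all genes). Libraries did not overlap for 3 higher (9.09%, against 9.45% of all genes) and 3 lower members (9.09%, against 12%).

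Fas was at 79.0, 98.8 and 69.6 CPM in HFD TertCi 30, 31 and 33, against 43.3 to 56.9 CPM in HFD mCherry. The lowest TertCi library was above all control libraries (log2 fold change 0.75 ± 0.309 SE, adjusted p = 0.303 in edgeR). Gadd45a was at 112, 95.6 and 90.8 CPM (log2 fold change 0.52 ± 0.380 SE, adjusted p = 0.539 in edgeR) and Ei24 at 83.1, 94.9 and 89.1 CPM (log2 fold change 0.29 ± 0.199 SE, adjusted p = 0.517 in edgeR). In these 2 genes the gap between the groups was smaller than the range of either group. Sesn2 was at 20.2, 27.8 and 26.6 CPM, below the control's 34.0 to 49.6 CPM (log2 fold change -0.69 ± 0.373 SE, adjusted p = 0.415 in edgeR).

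Sesn1, the related sestrin, was at 33.8, 27.2 and 30.6 CPM in HFD mCherry and at 22.4, 24.5 and 23.6 CPM in HFD TertCi. The TertCi libraries were the 3 lowest of all 12 (log2 fold change -0.38 ± 0.197 SE, adjusted p = 0.404 in edgeR). Mdm4 was at 78.4, 54.0 and 79.3 CPM in HFD TertCi, all below the control (log2 fold change -0.58 ± 0.305 SE, adjusted p = 0.410 in edgeR). Trp53 was at 36.7, 54.0 and 51.0 CPM (log2 fold change -0.19 ± 0.256, SE), Mdm2 at 99.8, 157 and 109 CPM (-0.45 ± 0.356, SE) and Ccng1 at 130, 76.9 and 124 CPM (0.38 ± 0.388, SE). All 3 overlapped with the control, with edgeR adjusted p of 0.574 or more. Beside these values, 9 of 10 macrophage, 5 of 6 mast cell and 4 of 10 adipose progenitor markers had an unadjusted p under 0.05 and were lower in HFD TertCi, 1 of the progenitor markers called by edgeR. Of 7 mesothelial markers, 4 were higher (sums of 638 to 884 CPM, against 284 to 324 in HFD mCherry). Of 8 adipocyte markers, 2 were higher and 0 lower by the same measure. The part of composition in the members' values was not tested.

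**Figure D5:**
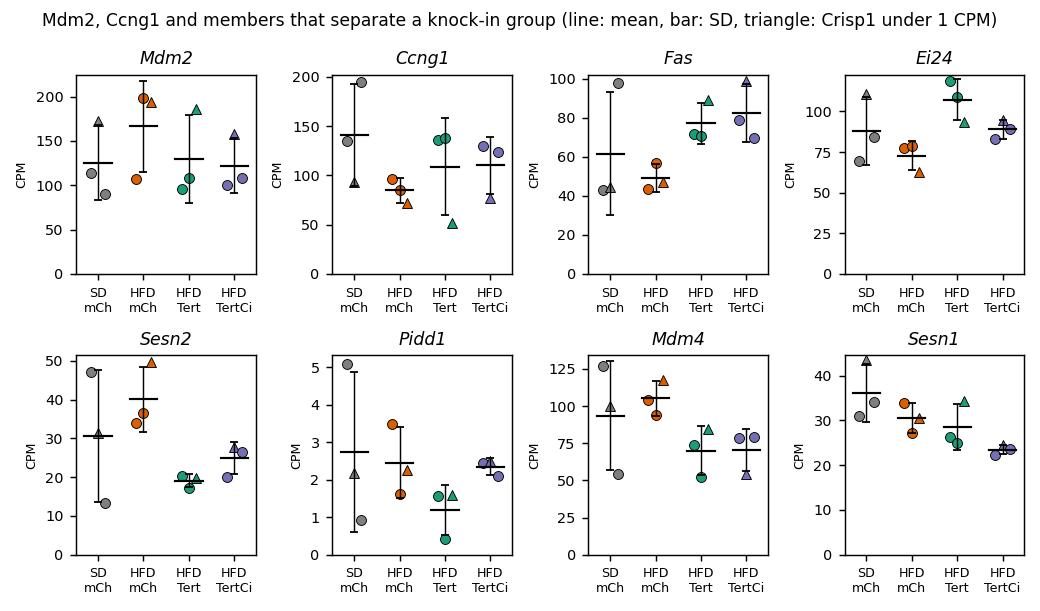
CPM of Mdm2, Ccng1 and the members other than Gadd45a whose libraries did not overlap in a comparison of the knock-in groups, with 1 point per library (triangles for Crisp1 under 1 CPM) a line at the group mean and a bar of 1 SD on each side, in all 4 groups. Sesn2 is lower in the 6 Tert and TertCi libraries (17.3 to 27.8 CPM) than in the 3 HFD mCherry libraries (34.0 to 49.6 CPM).

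The direct comparison of the active with the inactive form (HFD Tert against HFD TertCi) bears on the catalytic activity of Tert. The members differed little: the median log2 fold change was -0.02 against -0.01 over all genes, the median size was 0.13 against 0.18, and 12 were higher and 21 lower. edgeR, limma-voom and edgeR with the epididymis score called 0 members and 0 of all genes (0%), and DESeq2 called 0 members (against 0.0419% of all genes). No member had an unadjusted p under 0.05, against 1.36% of all genes (227 genes). Sesn1 was higher without overlap (3.03% of members, against 2.55% of all genes), at 26.3, 24.9 and 34.3 CPM in HFD Tert and 22.4 to 24.5 CPM in HFD TertCi. HFD Tert 26 and HFD TertCi 31 nearly met (log2 fold change 0.28 ± 0.197 SE, adjusted p = 1 in edgeR). Pidd1 was lower without overlap (3.03%, against 2.58% of all genes), at 0.427 to 1.59 CPM against 2.10 to 2.51 CPM (log2 fold change -0.97 ± 0.672 SE, adjusted p = 1 in edgeR). With standard errors between 0.197 for Sesn1 and 1.04 for Psrc1, differences of this size could not be resolved with 3 libraries a group.

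Over the 4 groups together, the F-test of the same edgeR model called 0 members, against 0.0120% of all genes. At an unadjusted p under 0.05 it found 8 members (24.2%, against 20.2% of all genes): Plk2, Tnfrsf10b, Eda2r, Aen, Gadd45a, Btg2, Pmaip1 and Trp53inp1. Among the alternatives, the test over the 4 groups called 6 members with DESeq2 (against 13.8% of all genes), 2 with the epididymis score (against 7.44%) and 2 without SD mCherry 3 (against 3%, 502 genes). Within each high-fat group, the same libraries tended to stand out, a pattern chosen here after its values were seen. Plk2 was at 441 and 480 CPM in HFD mCherry 17 and 20, 483 in HFD Tert 27 and 469 in HFD TertCi 31, and at 180 to 271 CPM in the other 5 high-fat libraries. Tnfrsf10b was at 123 to 157 CPM in those 4 libraries and 68.1 to 105 in the other 5, and Eda2r at 65.6 to 79.5 against 28.9 to 49.9 CPM. Apaf1, the scaffold of the apoptosome, was at 91.7 to 138 against 42.3 to 70.1 CPM. Mdm2 was at 157 to 198 against 95.3 to 109 CPM, and Psrc1 at 2.22 to 4.19 against 0.214 to 1.85 CPM. Cdkn1a, outside the set, was at 367 to 478 against 222 to 267 CPM. Xpc ran the other way, at 10.6 to 12.3 CPM in those 4 and 19.9 to 26.1 in the other 5, as did Perp, at 7.46 to 29.0 against 60.2 to 151 CPM, and Rrm2b, the p53-inducible ribonucleotide reductase subunit, at 12.9 to 22.0 against 22.7 to 33.3 CPM. Btg2 was lower too, at 391 to 462 against 574 to 758 CPM, and so was Ccng1, at 51.8 to 85.5 against 96.8 to 138 CPM. The other members overlapped in this split, and the share of all genes that separate in it was not counted. Without that share, the list cannot be read as a trait of these members. The same 4 libraries had the lowest epididymis sums of the 9 (57.2 to 2125 CPM, against 11810 to 36210), and within each group the highest macrophage sums. The part of either in the members' values was not tested.

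The wider pathway was taken from a list of 21 upstream factors and cofactors (kinases, Mdm2-binding ribosomal proteins, acetyltransferases) and a list of 23 further targets, all tested. edgeR called 0 genes of either list in every comparison. With the diet, 3 of 21 upstream genes (1 higher and 2 lower) and 10 of 23 further targets (7 higher and 3 lower) had an unadjusted p under 0.05, shares of 14.3% and 43.5% against 24.1% of all genes. In HFD Tert and in HFD TertCi against HFD mCherry, each time 1 of 21 upstream genes (lower) and 4 of 23 targets (1 higher and 3 lower) did, shares of 4.76% and 17.4% against 16.4% and 14.7% of all genes. In HFD Tert against HFD TertCi, 0 of either list did, against 1.36% of all genes.

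Cdkn1a, the cell cycle inhibitor p21 and the site of the knock-in, was at 213, 261 and 150 CPM on the standard diet, 226, 425 and 367 in HFD mCherry, 237, 267 and 433 in HFD Tert and 222, 478 and 265 in HFD TertCi. All groups overlapped (diet log2 fold change 0.71 ± 0.374 SE, adjusted p = 0.265 in edgeR, and -0.12 to -0.04 in the other 3 comparisons), and how reads of the modified allele were counted is not stated. With the diet, Dram1, a lysosomal autophagy regulator, was at 15.1, 27.4 and 11.5 CPM in SD mCherry and at 31.6, 99.6 and 101 CPM in HFD mCherry (log2 fold change 2.11 ± 0.581 SE, adjusted p = 0.0870 in edgeR). HFD mCherry 15 lay nearest to the standard-diet libraries, as it did for Plk2, Tnfrsf10b and Eda2r. Sertad1, a cyclin-dependent kinase regulator, was at 173, 211 and 138 CPM on the standard diet, 85.8, 99.7 and 87.7 in HFD mCherry, 146, 178 and 147 in HFD Tert and 159, 172 and 108 in HFD TertCi. HFD mCherry had the lowest libraries of the 4 groups (log2 fold change -0.93 ± 0.224 SE, adjusted p = 0.0729 in edgeR with the diet, and 0.79 and 0.68 in HFD Tert and HFD TertCi against HFD mCherry). These fold changes all rest on the same HFD mCherry libraries and are not independent. Rpl5, a ribosomal protein that binds Mdm2, was lower with the diet (log2 fold change -0.60 ± 0.248 SE, adjusted p = 0.180 in edgeR). Its SD mCherry 1 (44.96 CPM) and HFD mCherry 15 (44.41 CPM) libraries nearly met.

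Hipk2, a kinase that phosphorylates p53, was at 8.89, 11.1 and 17.4 CPM in HFD mCherry, 5.49, 3.15 and 4.23 in HFD Tert and 6.73, 7.47 and 6.42 in HFD TertCi. These 3 high-fat groups did not overlap with one another (log2 fold change -1.54 ± 0.322 SE, adjusted p = 0.168 in edgeR for HFD Tert and -0.86 ± 0.316 SE, adjusted p = 0.263 in edgeR for HFD TertCi against HFD mCherry, and -0.68 ± 0.317 SE, adjusted p = 1 in edgeR for HFD Tert against HFD TertCi). Lif, an interleukin-6 family cytokine, was lower in HFD Tert (-1.23 ± 0.340 SE, adjusted p = 0.195 in edgeR), and Steap3, a metalloreductase, was lower in HFD TertCi (-2.33 ± 0.583 SE, adjusted p = 0.186 in edgeR), both as log2 fold changes and without overlap. For Lif, HFD Tert 27 (140.8 CPM) and HFD mCherry 15 (141.7 CPM) nearly met, while HFD mCherry 17 and 20 were at 324 and 415 CPM. Igfbp3, a secreted binder of insulin-like growth factors, was higher in HFD Tert (log2 fold change 0.73), Ckap2, a spindle protein, was higher in HFD TertCi (0.79), and Trp53bp1, a damage response adaptor, was lower in HFD Tert than in HFD TertCi (-0.21), each without overlap and with an edgeR adjusted p of 0.342 or more. The 4 half-sites shown for Trp53, Gadd45a, Aen and Polk belong to 4 of the 8 members with a window among the 10 without overlap between the diets, and 5 of the other 17 members with a window held one. Trp53 and Aen were higher with the diet, and Gadd45a and Polk lower. These counts are small, and a link between half-sites and the diet was not tested.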

How the data were processed

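The values are raw counts of reads per gene, deposited by the authors as 1 table a library with 24422 gene symbols, and were used unchanged. Reads were processed with Subread, SAMtools and featureCounts 1.6.4 against mm10 (the same assembly as GRCm38), per the submitters' processing notes. The annotation and strand setting are not given in the sources used here. Per the labels' protocols, the RNA was poly-A selected and primed with random hexamers. Of the table lines, 0 lacked a gene name.

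Genes were kept by filterByExpr (16713 genes) and tested with edgeR 4.0.16 in R 4.3.3: TMM factors (0.854 to 1.15), 1 robust quasi-likelihood model over the 4 groups without covariate (common biological coefficient of variation 0.536, 8 residual degrees of freedom and 2.71 prior ones in the median), 2-sided tests and Benjamini-Hochberg adjustment over all genes tested. The pipeline was tested on simulated data. The alternatives were DESeq2 1.42.0, limma-voom (limma 3.58.1), DESeq2-type size factors, library size only, no count filter, only the 2 groups compared, an epididymis score as covariate, only libraries with Crisp1 at 1 CPM or more, and leaving out each of the 12 libraries. The epididymis score was the mean log2 CPM (prior count 2) of the 12 tested genes of that list. Standard errors (SE) are not an output of the edgeR test. Each was derived as the size of the log2 fold change divided by the square root of the test's F statistic.

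The members, gene lists and tests were chosen with earlier results of these data known. Values in every library are given for Trp53, Mdm2, Ccng1 and, in each comparison, for members called and for at most 5 members in each direction, ranked by log2 fold change, among those whose libraries did not overlap. From the pathway lists Cdkn1a and up to 2 genes in each direction were named by the same rule, of which 1 is not reported here. Cop1 was counted as Rfwd2, and Tnfrsf10d, Muc16, Trac and Ly6g were not matched. The lists for adipocytes, T cells, B cells, neutrophils, mast cells, skeletal muscle, erythrocytes, the integrated stress response and proliferation had sums of 340 to 6343, 10.2 to 24.0, 4.40 to 31.6, 3.15 to 21.6, 24.6 to 264, 2.64 to 812, 1619 to 21270, 1986 to 3534 and 139 to 295 CPM over the 12 libraries.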

Additional observations from a re-analysis of the deposited data

How the results depend on the processing

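No paired analysis was possible because no replicate number in the labels occurs in more than 1 group. Trp53, Mdm2, Ccng1 and the members without overlap gave 640 values in 32 pairs of member and comparison under the alternatives: 621 kept their direction and side of the threshold, 19 passed it, all with the diet, and 0 changed sign. Most of these pairs were chosen for the absence of overlap, which leaves little room for a change of sign. Over all 33 members and 4 comparisons, 21 of 2640 values passed the threshold, all with the diet, and 152 had the other sign, in 56 pairs of member and comparison. The number of members called with the diet was 7 with DESeq2, 5 with the epididymis score as covariate and 0 to 7 when 1 library was left out: 7 without HFD mCherry 15 and 2 (Plk2 and Tnfrsf10b, adjusted p = 0.0302 in edgeR) without HFD Tert 27, where all-gene shares were 12.4%, 10.2%, 12.6% and 4.21% in that order. The F-test over the 4 groups called 6 members with DESeq2, 2 with the epididymis score and 0 to 2 with 1 library left out (2 without SD mCherry 3), against 13.8%, 7.44% and 3% of all genes. In HFD Tert and HFD TertCi against HFD mCherry and in HFD Tert against HFD TertCi, every alternative called 0 members. The diet median of -0.15 became -0.0266 with limma-voom, -0.36 with library size only and -0.0591 in the libraries with Crisp1, and ran from -0.24 (without HFD mCherry 15) to -0.0632 (without SD mCherry 1) with 1 library left out. The HFD Tert median ran from -0.18 (without HFD Tert 27) to 0.0758 (without HFD Tert 26). The HFD TertCi median became 0.11 with library size only and 0.0825 in a fit of the 2 groups alone, and ran from -0.0567 (without HFD TertCi 31) to 0.0549 (without HFD TertCi 33). The median of HFD Tert against HFD TertCi ran from -0.11 to 0.02. With 3 libraries a group and this spread, moderate differences in single members were not resolved. Counts limited Psrc1, Pidd1 and Tigar most, at 4 to 196 per library. The causes of these shifts were not tested.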

Other observations

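Several members are also targets of other stress pathways, and 2 further lists were summed in each library. The 10 genes of the integrated stress response had the highest sums in HFD TertCi 31 (3534 CPM), SD mCherry 2 (3503) and SD mCherry 1 (3161), and the lowest in HFD mCherry 20 (1986). Gdf15, which that response also induces, was highest in the same HFD TertCi library (381 CPM) and lowest in SD mCherry 3 (68.4 CPM). The 12 proliferation genes were highest in HFD Tert 27 (295 CPM), HFD mCherry 17 (287), HFD mCherry 20 (265) and HFD TertCi 31 (246), the libraries in which Psrc1, a mitotic spindle gene, was at 3.76, 2.22, 3.17 and 4.19 CPM, against 0.214 to 1.85 CPM in the other 8. Of all genes tested, 61 were higher and 343 lower without overlap in the 4 libraries without Crisp1 than in the 8 with it (2.42%), and 0 of the 33 members were, a count near that background. The split by Crisp1 placed HFD mCherry 17 (epididymis sum 2125 CPM) among the 8 libraries and SD mCherry 2 (3996 CPM) among the 4. It thus differed from the split of the high-fat libraries described above, and this count does not carry over to that split.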
